A study of Canis lupus familiaris with 18 samples.

Results

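UCP1, UCP2 and UCP3 are the classical uncoupling proteins, and their RNA was followed in the right atrium (RA) and right ventricle (RV) of dogs with pacing-induced heart failure (HF). The members were chosen by gene symbol: every probe set, the group of short probes that reports a transcript on the array, whose only platform symbol is UCP1, UCP2 or UCP3. These are 3 of the 15115 genes with a probe set of their own. UCP1 has 1 probe set, with the suffix _s_at, and UCP2 and UCP3 have 2 each, a brighter one with the suffix _at and a dimmer one with _s_at, and all 5 passed the filter on low signal. The family was proposed with earlier results of these arrays known, namely the chamber difference of UCP3 in controls and the values of UCP1 and UCP2 in the RA at 2 weeks of pacing. Values from those contrasts are therefore given as a description, with no test.

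The 18 Affymetrix Canine_2 arrays measured total RNA from adult mongrel or beagle dogs, with 3 arrays in each of 6 groups: RA and RV from controls, from early HF and from late HF. Early HF was produced by ventricular tachypacing, continuous rapid pacing from an implanted pacemaker, for 2 weeks and late HF for 5 weeks, while the fuller protocol gives 2 to 3 and 5 to 6 weeks. No genotype, age or sex is given, the labels do not say whether controls carried a pacemaker, and the breed of each dog is not stated. A small snap-frozen piece of each chamber was used, and although the replicates are called biological, no animal is identified, and a p-value here covers only how far these samples spread, which may be technical.

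Uncoupling proteins belong to the SLC25 family of carriers in the inner mitochondrial membrane. UCP1 is the thermogenic protein of brown and beige fat, where fatty acids activate it to let protons return to the matrix without making ATP. UCP2 is expressed widely and is abundant in immune cells, where it has been studied in relation to reactive oxygen species and to the export of carbon compounds from mitochondria. UCP3 is found mainly in skeletal muscle, brown fat and heart; fatty acids acting through PPARA, a lipid-sensing nuclear receptor, are known to raise its transcription in the heart. In the dog reference gene table UCP2 and UCP3 lie on the same chromosome with 1 other annotated locus between them, and UCP1 lies on another.

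The array medians lay between 5.65 and 5.75 on the log2 scale, and the 3' minus 5' signal of GAPDH, a sign of RNA integrity, between 1.03 and 1.62. On the light chain genes and on an axis of chamber markers, 1 library stood apart from its label. The library labelled RA late 3 had 14.17 for the ventricular light chain gene MYL2, inside the RV range of 12.76 to 14.42, and 11.65 for the atrial light chain gene MYL7, below every RV library. Its position on an axis built from the 748 probe sets called between RA and RV controls, with the mean of RV controls at 0 and that of RA controls at 1, was 0.187. The other RA libraries from HF lay between 0.79 and 0.91 and the RV libraries between -0.043 and 0.284. Not all of its markers stood with the RV: GJA5, an atrial gap junction gene, read 8.74, inside the 8.46 to 9.21 of the other RA libraries and above every RV library (6.47 to 7.52), and DKK3, a secreted protein enriched in atria, read 9.17, between the RV (6.16 to 8.53) and the other RA libraries (12.05 to 12.76). Differences of the members that use RA late 3 are given with and without it. The arrays are of whole tissue, so fewer cells of a type and less RNA per cell cannot be told apart. The brown fat markers ADRB3, ZIC1, COX8B, KCNK3 and NRG4 have no probe set under their symbol alone, and ELOVL3, TBX1, TMEM26, LHX8 and OTOP1 fell below the filter limit of 5.31, near background.

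UCP3 was the most variable member. On its brighter probe set the RV control arrays read 10.08, 9.44 and 8.36 on the log2 signal scale and the RA control arrays 7.06, 6.00 and 5.54. Every RV control array was above every RA control array, and RA minus RV was -3.09 log2 units, an 8.53-fold difference. This is the contrast that brought the gene forward, in which 2.90% of all 25752 probe sets tested differed at an adjusted p of 0.05, and it is not tested here. The dimmer probe set read 9.38, 8.55 and 7.47 in RV controls and 6.20, 4.87 and 5.00 in RA controls, with RA minus RV at -3.11. On the dimmer set 2 of the 3 RA control arrays lay under the filter limit, and all RV control arrays lay well above it.

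At 2 weeks of pacing the RV arrays read 6.03, 7.92 and 8.07 for UCP3 on the brighter probe set. All 3 lay below the lowest RV control, with a mean of 7.34 (SD 1.14, n = 3) against 9.29 (SD 0.87, n = 3). The RV difference from control was -1.95 (SE 0.71, 95% interval -3.45 to -0.46). It did not pass limma's test after Benjamini-Hochberg adjustment over all probe sets (adjusted p = 0.393), in a comparison where 0.105% of probe sets were called. The dimmer probe set read 5.77, 7.48 and 7.07, a difference of -1.69 (SE 0.67, limma adjusted p = 0.458), and its highest array at 2 weeks overlapped the lowest control. These differences use the RV control arrays of the contrast that brought UCP3 forward, so they are not independent of that choice. The array that read lowest for UCP3, RV early 1, stood at 0.134 on the chamber axis, above the other RV arrays at 2 weeks (0.070 and 0.098). The RV controls lay between -0.043 and 0.052 and the RV arrays at 5 weeks between 0.200 and 0.284. A part of tissue composition in this reading was not tested.

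At 5 weeks the RV arrays read 7.17, 9.09 and 7.99 for UCP3, and overlapped both the control arrays and those of 2 weeks. The difference from RV control was -1.21 (SE 0.71, limma adjusted p = 0.613), and none of the 25752 probe sets (0%) was called there by limma, with 2372 at an unadjusted p under 0.05. Under other fits this count reached 254 in a fit of the compared groups alone, 229 with array weights and 34 without RA late 3. From 2 to 5 weeks in the RV the UCP3 difference was 0.74 (SE 0.71, limma adjusted p = 0.971), where again 0% were called (1433 at an unadjusted p under 0.05). None of the UCP3 stage contrasts in the RV passed the test on either probe set. The difference from RV control at 5 weeks also uses the control arrays on which UCP3 was chosen.

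In the atrium UCP3 read lowest at 2 weeks. The RA arrays at 2 weeks read 5.16, 5.43 and 5.37, and all 3 lay below every RA control array. This contrast, in which 0.812% of all probe sets were called, is one the family was selected on, so its difference of -0.88 is given without a test. The dimmer probe set read 4.84, 4.30 and 4.23, under the filter limit, so the size of the difference is limited by background. At 5 weeks the RA arrays read 5.37, 5.76 and 8.29, and the highest of these is RA late 3. With RA late 3 the difference from RA control was 0.27 (SE 0.71, limma adjusted p = 0.907), and without it the sign turned to -0.64 (limma adjusted p = 0.608). The dimmer probe set gave 0.41 (limma adjusted p = 0.846) with it and -0.45 (limma adjusted p = 0.705) without it. These differences share the RA control arrays with the contrasts the family was selected on.

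UCP3 averaged lower in the RA than in the RV in all 3 stages. At 2 weeks RA and RV arrays did not overlap on either probe set: RA minus RV was -2.02 on the brighter one (SE 0.71, 95% interval -3.52 to -0.52, limma adjusted p = 0.113) and -2.32 on the dimmer one (SE 0.67, limma adjusted p = 0.0522). The RA arrays at 2 weeks lay around the filter limit of 5.31 on the brighter set and all under it on the dimmer set, whose mean over the 9 RA arrays was 5.19, so that it passed the filter through the RV; the sizes are limited by background there and the dimmer set adds no independent support. Neither passed the threshold when all arrays were treated as separate, in a comparison where 5.65% of probe sets were called. Arrays of RA and RV that carry the same stage and number deviated together in controls and early HF. The block fit paired them in all 3 stages. Its SE therefore also rests on the late HF pairs, whose correlations were 0.05, -0.42 and 0.15. The pairing was read from the values (0.17, 0.26 and 0.15 in early HF), and no label identifies an animal. The block fit rests on that assumption. With the pairs as a block the same UCP3 differences passed the test, with an SE of 0.52 and adjusted p = 0.0380 on the brighter and SE 0.52 and adjusted p = 0.0218 on the dimmer probe set (limma; 7.24% of probe sets called). In the fit of the 17 arrays without RA late 3, where 9.01% were called, they passed as well, at limma adjusted p = 0.0292 and 0.00876. That array is in neither group and enters through the shared estimate of the spread.

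Pair by pair on the brighter probe set, RA minus RV was -3.02, -3.44 and -2.82 in the 3 control pairs and -0.87, -2.49 and -2.70 at 2 weeks. All 3 pairs at 2 weeks had the lower value in the atrium, and the smallest gap belonged to the pair of RV early 1; the control pairs are from the contrast that brought UCP3 forward. At 5 weeks RA minus RV was -1.61 (SE 0.71, limma adjusted p = 0.402) over all arrays, the groups overlapped, and 0.0272% of probe sets were called. Without RA late 3 it was -2.52 (SE 0.62, limma adjusted p = 0.0383) on the brighter and -2.53 (SE 0.58, limma adjusted p = 0.0272) on the dimmer probe set, in a fit that called 3.18% of probe sets. RA late 3 was marked out on an axis built from the same control contrast that brought UCP3 forward. Leaving out the RA array with the highest UCP3 widens the gap and narrows the spread, so these p-values are not independent of that choice. The remaining RA arrays read 4.53 and 5.28 on the dimmer set, under the filter limit, so that set adds no independent support here either. The change of the chamber gap from 2 to 5 weeks was 0.41 (limma adjusted p = 0.953), in a contrast with 0% called (1915 at an unadjusted p under 0.05), and -0.50 without RA late 3. From control to 5 weeks the gap was smaller by 1.48 log2 units, a value that uses the control contrast and so carries no test; without RA late 3 it was 0.58 (0.59 against 1.45 on the dimmer probe set).

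**Figure D1:**
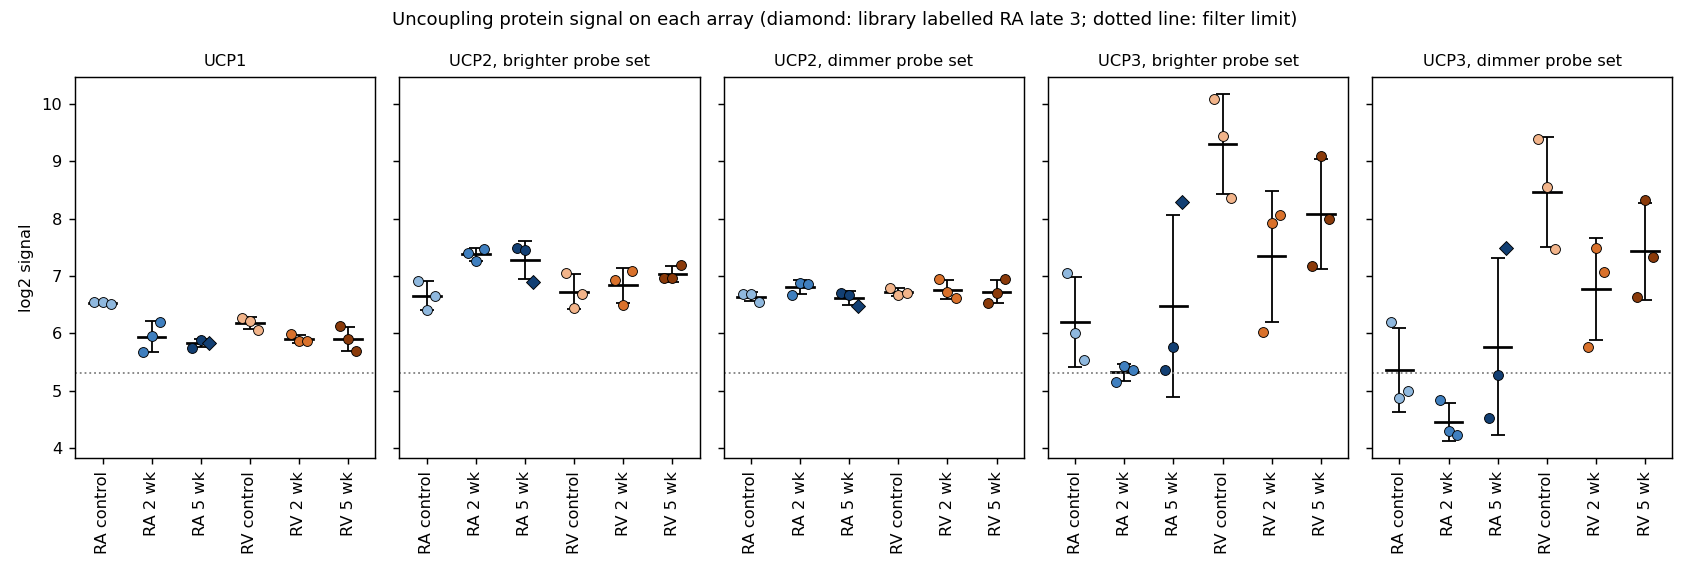
Log2 signal (vertical axis) of each UCP probe set in each of the 18 arrays by group (horizontal axis), with the mean and SD of 3 arrays as bars, RA late 3 as a diamond and the filter limit of 5.31 as a dotted line. UCP3 spans 5.16 to 10.08 on its brighter probe set and its highest atrial point is RA late 3 at 8.29, while UCP1 is highest in RA controls, at 6.51 to 6.54.

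In the order of group means, UCP3 ran from RV control (9.29) through RV at 5 weeks (8.08), RV at 2 weeks (7.34), RA at 5 weeks (6.47) and RA control (6.20) to RA at 2 weeks (5.32). Each neighbour in this order overlapped the next except RA control and RA at 2 weeks. Without RA late 3 the RA at 5 weeks averaged 5.57 (5.37 and 5.76), below RA control in the order, and it lay below every RV array at 2 weeks and overlapped both other RA groups. The SD over the 18 arrays was 1.59 on both probe sets, which puts UCP3 at the 99.8th percentile of probe sets tested. The SD within groups, 1.01 on the brighter and 0.95 on the dimmer probe set, stood at the 99.7th percentile, so replicates differed unusually as well. The probe sets ranked the arrays alike (Pearson r = 0.985 over the 18 arrays, which share the same RNA).

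UCP1 read highest in the control atrium. Its arrays read 6.54, 6.54 and 6.51 in RA controls and 6.27, 6.21 and 6.06 in RV controls, a difference of 0.35 with no overlap that is not tested here. At 2 weeks the RA arrays read 5.67, 5.96 and 6.20, all below every RA control (difference -0.59, not tested). At 5 weeks they read 5.75, 5.89 and 5.84, again all below the controls, and UCP1 was lower by 1.63-fold (-0.70, SE 0.12, 95% interval -0.96 to -0.45, limma adjusted p = 0.0360). It was 1 of the 18 probe sets, 0.0699% of those tested, called in that comparison. RA at 5 weeks is set against the same RA control arrays as RA at 2 weeks, so the 5-week call is not independent of the values on which UCP1 was chosen.

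The atrial fall of UCP1 at 5 weeks kept its size and not always its call. Without RA late 3 it was -0.71 (SE 0.14, limma adjusted p = 0.0219), in a fit that called 1.65% of probe sets. With any 1 RA control array left out the limma adjusted p was 0.182, 0.0932 or 0.123, and 0.173 without RA late 1, at differences between -0.71 and -0.67. Without RA late 2 the call held (-0.74, limma adjusted p = 0.0398). A fit of these groups alone gave the same difference at limma adjusted p = 0.379, and a fit with no signal filter gave 0.0513. The RA control arrays had an SD of 0.017 for UCP1.

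In the RV the UCP1 values were smaller in span. At 2 weeks the arrays read 5.99, 5.86 and 5.86, all below the 3 RV controls, and the difference of -0.28 (SE 0.12) did not pass limma's test over all probe sets (adjusted p = 0.537). At 5 weeks they read 6.12, 5.90 and 5.70, and overlapped the controls (-0.27, limma adjusted p = 0.520). Between 2 and 5 weeks UCP1 differed by -0.12 in the RA with and without RA late 3 (limma adjusted p = 0.866 and 0.817; 0% of probe sets called and 2068 at an unadjusted p under 0.05) and by 0.00 in the RV (adjusted p = 0.996). The chambers were close at 2 weeks (RA minus RV 0.04, limma adjusted p = 0.912) and at 5 weeks (-0.08, limma adjusted p = 0.807; -0.087 without RA late 3, limma adjusted p = 0.747). The difference from control to 5 weeks was more negative in the RA than in the RV, at -0.43 (SE 0.17; -0.44 without RA late 3), which did not pass limma's test (adjusted p = 0.607; 0.00777% of probe sets called). It uses the RA control arrays on which UCP1 was chosen, so it is not independent of that choice. A difference in the UCP1 response between the chambers is therefore not shown.

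By group mean UCP1 ran from RA control (6.53) through RV control (6.18), RA at 2 weeks (5.94), RV at 5 weeks (5.91) and RV at 2 weeks (5.90) to RA at 5 weeks (5.83). From RV control downward each neighbour overlapped the next. All 18 values lay between 5.67 and 6.54, close to the array medians. No detection call is used here, so how much of this signal is UCP1 transcript and how much is background was not tested. The only UCP1 probe set carries the suffix _s_at, which Affymetrix uses for probe sets whose probes can match more than 1 transcript, and no other UCP1 probe set is there to set beside it.

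Markers of fat are given beside UCP1. The mean of 11 white adipocyte markers was 7.94 in RA controls (7.79 to 8.06), 7.58 at 2 weeks (7.35 to 7.85) and 7.39 at 5 weeks (7.04 to 7.77, the lowest being RA late 3), and 0 of 11 passed limma's test between 5 weeks and control. In the RV the same mean was lowest in controls and highest at 5 weeks, from 7.21 in controls (7.04 to 7.38) to 7.42 (7.15 to 7.96) and 7.71 (7.36 to 8.06), while UCP1 averaged 6.18, 5.90 and 5.91. A few members carried these means: the median difference of the 11 from control was -0.09 and -0.12 in the RA at 2 and 5 weeks and 0.10 and 0.26 in the RV. FABP4, the fatty acid binding protein of adipocytes, went from 11.01 in RA controls to 11.47 in the RA at 2 weeks. The widest swing was that of ADIPOQ, the fat hormone adiponectin, which averaged 10.30, 8.20 and 7.42 in the RA and 7.23, 8.32 and 9.28 in the RV. Of the brown and beige fat list 6 of 16 genes were tested and 0 were called in either chamber at 5 weeks. Against control 0.0699% of all probe sets were called in the RA at 5 weeks and 0% in the RV. A 0 is therefore no result about the fat markers of either list. CIDEA, a lipid-droplet protein of brown fat that white fat also expresses, averaged 8.20, 7.31 and 6.72 in the RA and 6.41, 7.23 and 7.88 in the RV. PRDM16, a determinant of brown fat, stayed between group means of 5.43 and 5.60 and DIO2, the thyroid hormone activating enzyme, between 5.25 and 5.35, near the filter limit. The part of fat cells in the UCP1 values was not tested.

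UCP2 was read differently by its probe sets. The brighter one read 6.91, 6.41 and 6.65 in RA controls and 7.40, 7.26 and 7.47 in the RA at 2 weeks, with no overlap and a difference of 0.72 that is not tested. At 5 weeks the RA arrays read 7.49, 7.46 and 6.89, where the lowest is RA late 3 and overlaps the controls. The difference was 0.62 (SE 0.19, limma adjusted p = 0.246) over all arrays. Without RA late 3 it was 0.82 (SE 0.19) and passed limma's test (adjusted p = 0.0383). These values share the RA control arrays with the contrast UCP2 was selected on.

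The dimmer UCP2 probe set read nearly the same in all 3 RA groups. It read 6.69, 6.68 and 6.55 in RA controls, 6.66, 6.88 and 6.86 at 2 weeks and 6.71, 6.67 and 6.48 at 5 weeks. The difference at 5 weeks was -0.02 (limma adjusted p = 0.961) and 0.05 without RA late 3 (limma adjusted p = 0.857). Over the 18 arrays the dimmer set spanned 0.47 log2 units against 1.08 for the brighter one, and their Pearson r was 0.29. The UCP2 values of the brighter set thus have no match in the other probe set of the gene.

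In the RV the brighter UCP2 probe set read 7.05, 6.45 and 6.68 in controls, 6.93, 6.50 and 7.08 at 2 weeks and 6.96, 6.96 and 7.20 at 5 weeks, and all stages overlapped. The differences from control were 0.11 (limma adjusted p = 0.948) and 0.31 (limma adjusted p = 0.622). RA minus RV was -0.07 in controls. At 2 weeks every RA array was above every RV array for UCP2, by 0.54 (SE 0.19), and this did not pass limma's test (adjusted p = 0.114), nor did the 0.24 at 5 weeks (limma adjusted p = 0.622), which was 0.435 without RA late 3 (limma adjusted p = 0.188). The RA arrays at 2 weeks are those on which UCP2 was chosen, so their non-overlap with the RV is not independent of that choice. Between the chambers at 2 weeks 5.65% of all probe sets were called. By group mean UCP2 ran from RA at 2 weeks (7.38) through RA at 5 weeks (7.28), RV at 5 weeks (7.04), RV at 2 weeks (6.84) and RV control (6.73) to RA control (6.66), and each neighbour overlapped the next. Without RA late 3 the RA at 5 weeks came first, at 7.475 (7.46 and 7.49), and the RA at 2 weeks then stood next to the RV at 5 weeks (6.96 to 7.20), with no overlap.

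Myeloid markers are given beside the brighter UCP2 probe set. The mean of 15 macrophage and myeloid markers was 7.27 in RA controls (7.21 to 7.33), 8.07 in the RA at 2 weeks (7.76 to 8.42) and 7.78 at 5 weeks (7.21 to 8.29), where RA late 3 was the lowest for the markers as it was for UCP2. In the RV the mean was 7.16 in controls, 7.33 at 2 weeks (7.11 to 7.56) and 7.61 at 5 weeks (7.54 to 7.68). Between RA and RV at 2 weeks 5 of 15 markers were higher in the RA by limma's test and 0 lower, with a median difference of 0.59 against -0.03 over all probe sets, of which 3.01% were called higher. In the fit that leaves out RA late 3, 10 of 15 were higher, beside 5.09% of all probe sets. They included CTSS, a lysosomal protease of myeloid cells (2.06, limma adjusted p = 0.000135). C1QA, a subunit of complement C1q (0.52, adjusted p = 0.0112), and CD14, the endotoxin co-receptor (0.40, adjusted p = 0.0187), were also among them. Fibroblast markers differed in the same arrays, with 7 of 9 higher in the RA at 2 weeks (3.01% of all probe sets). Their list means were 9.20 in RA and 8.39 in RV controls, and 10.68 in the RA and 8.87 in the RV at 2 weeks. The median difference of the 9 between the chambers was 0.997 in controls, with 1 called higher (1.69% of all probe sets), and 1.56 at 2 weeks. PTPRC, FCER1G, ITGAM, MSR1 and SPI1 of the myeloid list were below the filter limit. The part of myeloid cells in the UCP2 values was not tested.

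**Figure D2:**
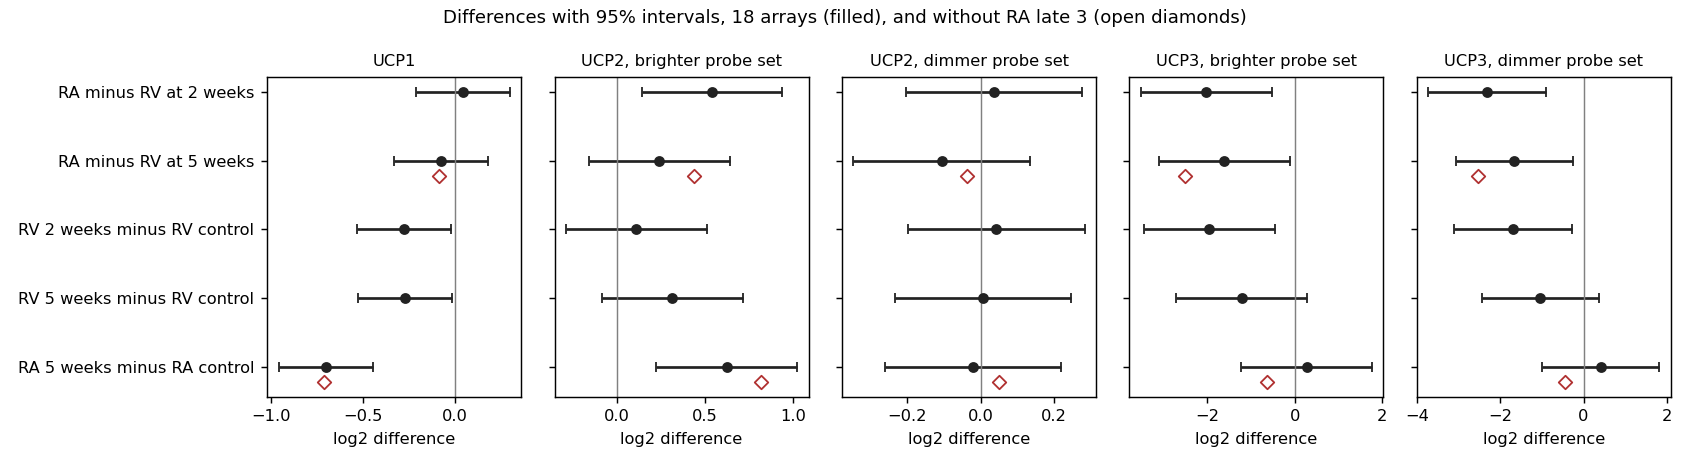
Log2 differences (horizontal axis) of the 5 UCP probe sets in 5 comparisons, with 95% intervals of the limma fit; open diamonds are the values without RA late 3, drawn where that array enters the comparison, and each panel has its own scale. UCP1 in the RA at 5 weeks, at -0.70, is the value that passed the test over all 18 arrays, and the UCP3 differences move most when RA late 3 is left out, from 0.27 to -0.64 in the RA at 5 weeks.

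Other mitochondrial carriers of the SLC25 family differed in both directions between the chambers at 2 weeks. Of 34 tested, 2 were higher and 1 lower in the RA, with a median difference of 0.01; at 5.65% of all probe sets called, this is near the background. The ADP/ATP carriers SLC25A6 (0.79, SE 0.17, limma adjusted p = 0.0147) and SLC25A5 (0.80, SE 0.20, limma adjusted p = 0.0249) were higher in the RA, and SLC25A36, a pyrimidine nucleotide carrier, was lower (-0.65, SE 0.16, limma adjusted p = 0.0257). Of the same 34 carriers, 0 were called in the RV at 2 or 5 weeks or in the RA at 5 weeks against control, where the background was 0.105%, 0% and 0.0699%, so a 0 is no result about the carriers. In the RV at 2 weeks SLC25A12, an aspartate/glutamate carrier, was at -0.67 (SE 0.13, limma adjusted p = 0.0557), and in the fit without RA late 3 the same difference passed the test (limma adjusted p = 0.0301). The RV group means of SLC25A30, a close relative of the uncoupling proteins also called KMCP1, were 8.83, 8.36 and 8.32 and those in the RA 7.64, 7.79 and 8.20. SLC25A4, the ADP/ATP carrier of heart and muscle, and the brain-rich relatives SLC25A14 and SLC25A27 are further members of the list, and none of these 3 was called in the comparisons against control or between the chambers at 2 weeks.

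Among PPAR-responsive fatty acid genes, 7 of 29 were lower in the RA than in the RV at 2 weeks and 0 were higher, with a median difference of -0.45. In the same comparison 680 of the 25752 probe sets (2.64%) were lower and 774 higher. A like gap was present in controls, where 5 of the 29 were lower and 0 higher, with a median of -0.39 (1.21% of all probe sets lower). The 7 were PLIN2, a lipid-droplet coat protein (-1.49, SE 0.28, limma adjusted p = 0.00729), LPL, the lipase that frees fatty acids from lipoproteins (-1.09, adjusted p = 0.0274), MLYCD, which degrades malonyl-CoA (-0.93, adjusted p = 0.0111), ETFB, an electron carrier of fatty acid oxidation (-0.88, adjusted p = 0.0201), the acyl-CoA dehydrogenases ACADVL (-0.83, adjusted p = 0.0341) and ACADS (-0.50, adjusted p = 0.0370), and CD36, a fatty acid transporter (-0.78, adjusted p = 0.0173). Not called were ANGPTL4, a secreted inhibitor of LPL (0.10, limma adjusted p = 0.779), PDK4, the kinase that turns off pyruvate dehydrogenase (-1.75, limma adjusted p = 0.229), and FABP3, the heart fatty acid binding protein (0.09, limma adjusted p = 0.899). Without RA late 3, 11 of the 29 were called lower at 2 weeks and 0 higher (3.92% of all probe sets lower). In RA minus RV at 5 weeks 0 of 29 were called in that fit (3.18% of all probe sets), though the median difference was still -0.39.

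Within the RV at 2 weeks 0 of 29 fatty acid genes were called against control, with a median difference of -0.14. Of all probe sets 0.105% were called there, so a 0 is no result about these genes. PDK4 was at 1.70 (SE 0.77, limma adjusted p = 0.565), PLIN2 at 0.82 (limma adjusted p = 0.348), CD36 at 0.31 (limma adjusted p = 0.705) and CPT1B, the carnitine palmitoyltransferase of muscle, at -0.24 (limma adjusted p = 0.680). PDK4 and UCP3, both known as fatty acid responsive genes, thus had RV differences of opposite sign, neither of which passed the test. The list mean was 10.01 in RV controls (9.81 to 10.23), 10.03 at 2 weeks (9.90 to 10.12) and between 9.96 and 10.05 at 5 weeks, and RV early 1 held the lowest value at 2 weeks for the list as for UCP3. In the RA at 5 weeks 0 of 29 were called over all arrays, beside 0.0699% of all probe sets. CD36 came nearest (0.93, SE 0.17, limma adjusted p = 0.0597). Without RA late 3, 1 was called higher, beside 1.22% of all probe sets.

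Regulators of UCP transcription were called at about the background share. Of 17 tested, 1 was lower in the RA than in the RV at 2 weeks (5.65% of all probe sets called). It was RXRG, a retinoid receptor that pairs with PPARs (-0.78, SE 0.20, limma adjusted p = 0.0323). Against control, 0 were called in the RA at 5 weeks or in the RV at 2 or 5 weeks. The shares of all probe sets called there were 0.0699%, 0.105% and 0%. THRA, a thyroid hormone receptor, was at -0.32 (limma adjusted p = 0.160) and CREB1, the cAMP-responsive factor, at 0.22 (limma adjusted p = 0.215) between the chambers at 2 weeks. PPARA averaged 7.72, 7.50 and 7.22 in RV control, 2 weeks and 5 weeks and 7.13, 7.02 and 7.27 in the RA. PPARGC1A, the coactivator of mitochondrial biogenesis, was at -0.62 in the RV at 2 weeks (limma adjusted p = 0.669). PPARD, RXRA, ESRRG, NRF1, GABPA, SIRT1 and ATF2 fell below the filter limit. Of 14 antioxidant enzymes, 0 were called between the chambers at 2 weeks, with a median difference of -0.02, and a 0 among so few genes is near the 5.65% of all probe sets.

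**Figure D3:**
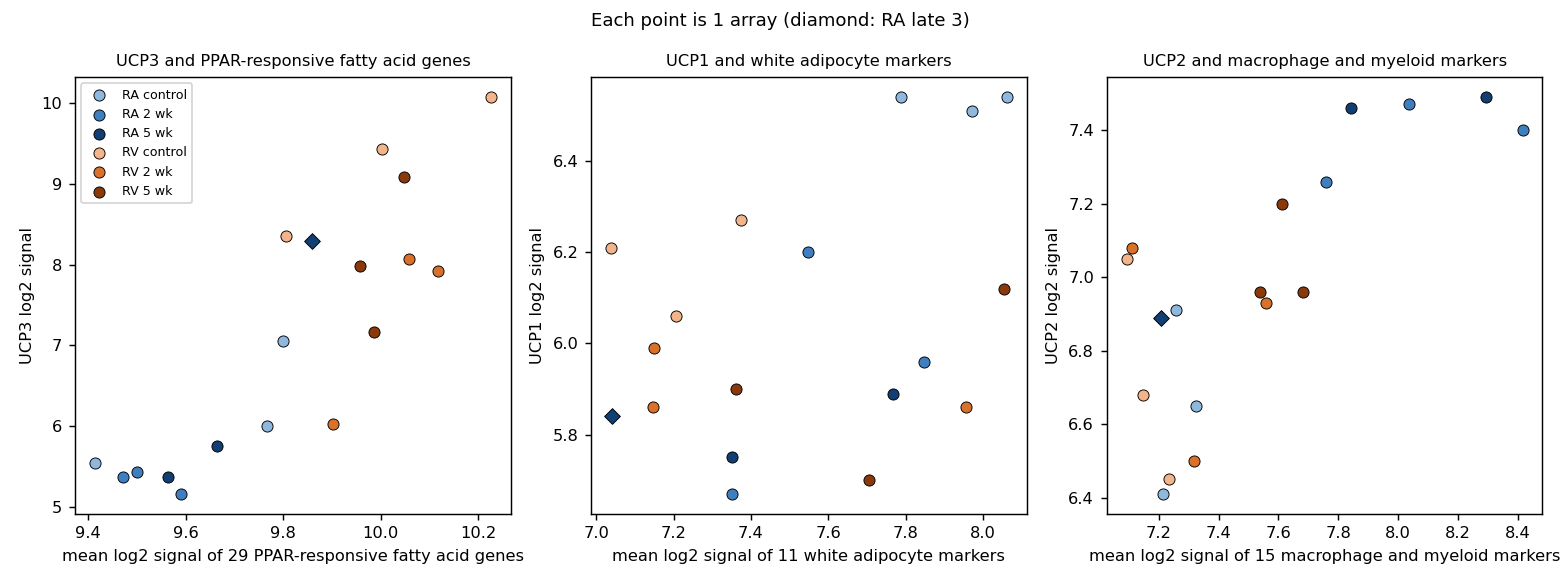
Each panel sets the log2 signal of a UCP gene in an array against the mean log2 signal of a gene list in the same array, with 1 point per array coloured by group: UCP3 with 29 fatty acid genes, UCP1 with 11 white adipocyte markers and UCP2 (brighter probe set) with 15 myeloid markers. RA late 3 lies with the RV points for UCP3 (8.29, list mean 9.86) and with the control points for the myeloid list (7.21).

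The genes whose signal across the 18 arrays was most like each UCP gene were taken by Pearson r over 10988 genes, as a description; the points share chamber, stage and array. For UCP3 these were KCNJ8, a subunit of ATP-sensitive potassium channels (r = 0.94), PLAAT1, a phospholipase and acyltransferase (0.93), ETFB (0.93), ACSL1, an acyl-CoA synthetase (0.93), and GSTK1, a glutathione transferase (0.93). Within the 9 RV arrays the r of KCNJ8 was 0.91 and that of GSTK1 0.90, and within the 8 RA arrays without RA late 3 they were 0.64 and 0.77. ACSL1 had 0.87 in those RA arrays and 0.81 in the RV. ETFB is also among the 7 fatty acid genes lower in the RA at 2 weeks, and ACSL1 was at -0.997 there (limma adjusted p = 0.0682).

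For the brighter UCP2 probe set the most alike were SAA1, an acute-phase protein (0.87), ELK3, an ETS transcription factor (0.86), LYZ, the lysozyme of myeloid cells (0.85), THBS4, a matrix thrombospondin (0.85), and CLPTM1L (0.85). Their r was 0.90 to 0.94 within the 8 RA arrays and 0.55 to 0.74 within the RV. LYZ is also a member of the myeloid list and was at 1.23 in RA minus RV at 2 weeks (limma adjusted p = 0.0712). For UCP1 they were RBFOX1, an RNA-binding splicing factor (0.84), NRTN, the growth factor neurturin (0.82), CA14, a carbonic anhydrase (0.82), LASP1, an actin-binding protein (0.81), and AQP6, an aquaporin (0.79). AQP6 had 0.87 in the RA and 0.44 in the RV. Between the members themselves r was -0.52 for UCP1 and UCP2, 0.00 for UCP1 and UCP3 and -0.43 for UCP2 and UCP3, so no pair of the family rose and fell together over these arrays.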

How the data were processed

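The deposited values are the authors' log2 signal per probe set on 18 arrays; the log2 scale was read from the values, and MAS5 is the tool named per the submitters' processing notes, with no version or scaling. The array medians nearly coincide, and what made them so is not given in the sources used here. Control probe sets (111 of 43035) and the 40% of the rest with the lowest mean signal were left out, which left 25752. Names came from the platform annotation (29254 probe sets with 1 symbol, 439 with several, 13231 with none); the brightest probe set stood for a gene of a list. Group means were fitted over all arrays with limma 3.58.1 in R 4.3.3 (12 residual degrees of freedom, trended prior, two-sided), with Benjamini-Hochberg adjustment over all probe sets and a threshold of 0.05. SE is that of the fit. The members and lists were chosen with earlier results of these data known. All member probe sets are named. From each list, up to 3 genes of smallest p in a comparison are named, with a set of regulators and markers whatever their p, and the 5 genes most correlated with each member. LPL, ETFB, ACADVL and ACADS complete a count, and FABP3, ADIPOQ, FABP4, GJA5, DKK3 and the genes listed only as below the filter were named after their values were seen.

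Deviations from group means correlated between RA and RV arrays of the same number at 0.36, 0.24 and 0.42 in controls, 0.17, 0.26 and 0.15 in early HF and 0.05, -0.42 and 0.15 in late HF. The correlations were thus positive throughout in controls and early HF and not in late HF. The block fit nevertheless held all 9 pairs of stage and number, late HF included, and its SEs rest on all of them. This pairing is an assumption, since arrays of the same chamber and number in different stages correlated at -0.33 to 0.36. On simulated data for RV 5 weeks against control with 200 of 25752 probe sets changed, the share found was 52.2% for changes of 1.5-fold, 95.5% for 2-fold and 98.5% for 4-fold. These shares cover the changed probe sets together and do not hold for UCP3, whose SD within groups stood at the 99.7th percentile. At least 97.5% of values differed between any 2 arrays. Figures used Python 3.11.15, numpy 2.4.6, pandas 2.3.3 and matplotlib 3.10.9.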

Additional observations from a re-analysis of the deposited data

How the results depend on the processing

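Of 854 values of the 55 member results under other settings or with 1 array left out, 797 kept their direction and side of the threshold; the cause of the other changes was not tested. The UCP1 difference in the RA at 5 weeks against control was -0.70 with no signal filter, with only the groups compared and with the replicate block by number (limma adjusted p = 0.0513, 0.379 and 0.0737), each missing the threshold, and between -0.74 and -0.67 with 1 array left out. For the brighter UCP2 probe set that comparison gave 0.79 with array weights and 0.50 to 0.82 with 1 array left out, and RA minus RV at 5 weeks gave 0.41 with array weights, both past the threshold under those weights. Ranges with 1 array left out cover only arrays of the groups compared. For the brighter UCP3 probe set RA minus RV at 2 weeks was -2.13 with array weights and -2.02 without RA late 3, with only the groups compared and with the replicate block of paired arrays, all past the threshold. With 1 array of its own groups left out it was -2.68 to -1.66, and none of these passed. RA minus RV at 5 weeks was -2.24 with array weights and -2.52 to -1.06 with 1 array left out. The block changed no other call of a member on these probe sets; on the dimmer UCP3 set it added RA minus RV at 2 weeks (-2.32). Signs turned where differences lay near 0 or rested on RA late 3. With array weights, UCP3 in the RA at 5 weeks against control was -0.44 and -0.074 on its brighter and dimmer sets, UCP2 0.023 on its dimmer set, UCP2 in the RA from 2 to 5 weeks 0.10, and the UCP3 chamber difference from 2 to 5 weeks -0.11. With 1 array left out, the RA 5-week difference spanned -0.64 to 0.83 and -0.45 to 1.03 for the UCP3 sets and -0.065 to 0.05 for the dimmer UCP2 set. In the RV at 2 weeks UCP2 spanned -0.028 to 0.28 and -0.05 to 0.12 on its sets, and at 5 weeks -0.10 to 0.11 on the dimmer one. From 2 to 5 weeks UCP1 spanned -0.25 to 0.012 in the RA and -0.10 to 0.11 in the RV, and UCP2 -0.20 to 0.10 in the RA and, on the dimmer set, -0.14 to 0.062 in the RV. RA minus RV spanned -0.088 to 0.18 for UCP1 and -0.035 to 0.13 for the dimmer UCP2 set at 2 weeks, and -0.18 to 0.027 for UCP1 at 5 weeks. The chamber difference from 2 to 5 weeks spanned -0.26 to 0.0083 for UCP1, -0.50 to 1.07 and -0.21 to 1.27 for UCP3, and that from control to 5 weeks -0.13 to 0.08 for the dimmer UCP2 set. Counts over all probe sets varied more: 18 in the RA at 5 weeks against control became 0 with only the groups compared, 2578 with array weights, 1 without RA control 1 and 426 without RA late 3. The 27 in the RV at 2 weeks ranged from 18 to 384 across settings and from 0 to 306 with 1 array left out. The 1454 of RA minus RV at 2 weeks ranged from 1225 to 2649 and, with 1 array of its own groups left out, from 392 to 1081. Without RA late 3, which is not in those groups, it was 2320. The 7 at 5 weeks ranged from 0 to 4853 and from 1 to 818. The iteration that sets array weights stopped before its tolerance. With 3 arrays a group, the number of arrays limits the precision, and the RA values of UCP3 near 5.31 lie close to background.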
